A study of Homo sapiens with 7 samples.

Results

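The loci of 6 genes of the retinoic acid pathway were examined for occupancy by HNF6, GATA6 and NKX6.1 during the in vitro differentiation of CyT49, an established line of human embryonic stem cells, into pancreatic progenitors. The genes were the receptors RARA and RARB, the enzymes CYP26A1, DHRS3 and RDH10, and the retinol carrier RBP4. A region belonged to a locus when its midpoint lay in the gene or within 100 kb of it on hg19. By this rule 59 of the 86081 regions in the 4 deposited peak lists were members: 39 of 64919 for HNF6 on day 10, 1 of 250 for HNF6 on day 5, 8 of 6285 for GATA6 on day 10 and 11 of 14627 for NKX6.1 on day 13.

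The 4 groups were chromatin immunoprecipitation libraries of HNF6 (also named ONECUT1) at the day 10 stage, labelled PE, and at the gut tube endoderm stage of day 5, of GATA6 on day 10, and of NKX6.1 at the day 13 stage, labelled PP. All came from the same line, with 1 library for each combination of factor and day, so differences could not be checked against replicates and no test was run. The extraction protocol of each sample names an NKX6.1 antibody. The antibody given as a sample characteristic instead matches the title of each list, although the title for day 5 reads HNF and not HNF6. The cell stage could not be checked against marker genes, because the lists hold positions and scores of peaks and no expression values.

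Retinoic acid is made from retinol in sequential oxidations and acts by binding nuclear receptors, the RARs, which pair with RXRs on response elements in DNA. Degradation by CYP26 enzymes and reduction of the intermediate retinaldehyde back to retinol keep its level in bounds. The signal is required for formation of the pancreas from foregut endoderm in several vertebrates, and retinoids are commonly added to stem cell cultures directed to pancreas. The labels refer to a published differentiation protocol without listing its agents. Of the factors studied, HNF6 has a cut domain beside its homeodomain and acts in the developing liver and pancreas. GATA6 binds DNA through zinc fingers, and its loss can leave people without a pancreas. NKX6.1 marks pancreatic progenitors and, later, beta cells.

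RARB and CYP26A1 are classical target genes of the pathway, and a promoter of each is shown because it held the response element searched for. The response element searched for was DR5, a direct repeat of a 6-base half-site with 5 bases between the copies. It was found on either strand in 31 of 35116 promoters in RefSeq's human table (GRCh38.p14), or 0.0883%, each covering 250 bases before and 50 after a transcription start. Among the 15 promoters listed for 5 of the 6 genes, 1 of RARB and 1 of CYP26A1 held it, and only these 2 are printed. The 100 bases before the start are printed 5′ to 3′ on the strand of the gene, with the element in capitals, for RARB at chr3:25428163-25428262 (plus strand) and for the second listed start of CYP26A1 at chr10:93073793-93073892 (plus strand).
RARB: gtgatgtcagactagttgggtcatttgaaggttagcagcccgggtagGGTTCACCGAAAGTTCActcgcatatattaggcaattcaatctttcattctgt
CYP26A1: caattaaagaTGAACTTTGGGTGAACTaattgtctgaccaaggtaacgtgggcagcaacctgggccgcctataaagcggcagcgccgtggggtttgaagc
The RARB element lay 53 to 37 bases before the start on the coding strand. The CYP26A1 element lay 90 to 74 bases before its start on the opposite strand, where it reads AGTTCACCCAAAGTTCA. Its first half-site thus differs from that of RARB, AGTTCA in CYP26A1 and GGTTCA in RARB, while the second half-site is AGTTCA in both. The second listed start of CYP26A1 lies 3992 bp from the gene end, against 4409 bp for the hg19 start, a difference of -417 bp. If the gene end is the same in both builds, the CYP26A1 element falls past the hg19 start from which region distances are counted.

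Short motifs associated with the 3 factors were searched on both strands of the same 15 promoters. ATCGAT was in 0 of them, against 0.763% of all promoters, and ATCAAT was in 1, at RARB, against 6.26% of all. GATAA was in 2, at RARA and RARB, against 22.7% of all, and TTAAT was in 4, at CYP26A1, DHRS3, RARA and RARB, against 24.4% of all. At RARB these 3 motifs were in the promoter of another listed start and not in the one printed. A match describes the letters and not a bound site. The genome build of these promoters differs from that of the peak lists, so they were not intersected.

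Among the 6 loci, occupancy by HNF6 of day 10 and by listed GATA6 was densest at RARB. That by NKX6.1 was nearly as dense at RARA. The RARB window of 369.7 kb held 19 HNF6 regions of day 10, or 5.14 per 100 kb, against 2.13 per 100 kb over the whole list. It also held 5 listed GATA6 regions (1.35 per 100 kb, against 0.206 over the list) and 5 NKX6.1 regions (1.35 against 0.479). All listed GATA6 regions overlapped HNF6 of day 10, so the counts of these factors are not independent. Of the GATA6 regions, 3 lay inside the gene. When the chromosomes were divided into consecutive windows of the same length, 4.53% of 8243 windows held as many HNF6 regions of day 10, 0.861% as many GATA6 regions and 7.32% as many NKX6.1 regions. These shares describe how common such counts are, and windows in assembly gaps are among them.

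The other receptor and the genes of retinoid metabolism and transport held fewer regions, in shorter windows. RARA held 5 HNF6 regions of day 10 (2.01 per 100 kb), 1 GATA6 region (0.402 per 100 kb) and 3 NKX6.1 regions (1.21 per 100 kb, against 1.35 at RARB). Windows of the RARA length with as many made up 35.3% for GATA6 and 15.1% for NKX6.1. For the enzymes, DHRS3 held 5 HNF6 regions, CYP26A1 held 3 (1.47 per 100 kb) and RDH10 held 1 (0.434 per 100 kb). RBP4 held 6, or 2.86 per 100 kb. Windows with as many HNF6 regions made up 52.0% of the genome's windows for RARA and for DHRS3, 65.7% for CYP26A1, 88.0% for RDH10 and 32.5% for RBP4. GATA6 was listed at DHRS3 with 2 regions and at CYP26A1, RDH10 and RBP4 with 0. Windows with as many GATA6 regions as DHRS3 made up 11.6%, and 69.5% of windows of the CYP26A1 length, 66.5% of the RDH10 length and 68.9% of the RBP4 length held 0. NKX6.1 was listed at RBP4 with 2 regions, at CYP26A1 with 1, and at DHRS3 and RDH10 with 0. As many were held by 27.1% of windows for RBP4 and 55.7% for CYP26A1, and 38.5% of windows of the DHRS3 length and 41.0% of the RDH10 length held 0. Together, the 2 receptor loci held 24 HNF6 regions of day 10 in 618.1 kb and the other 4 loci held 15 in 894.5 kb.

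**Figure D1:**
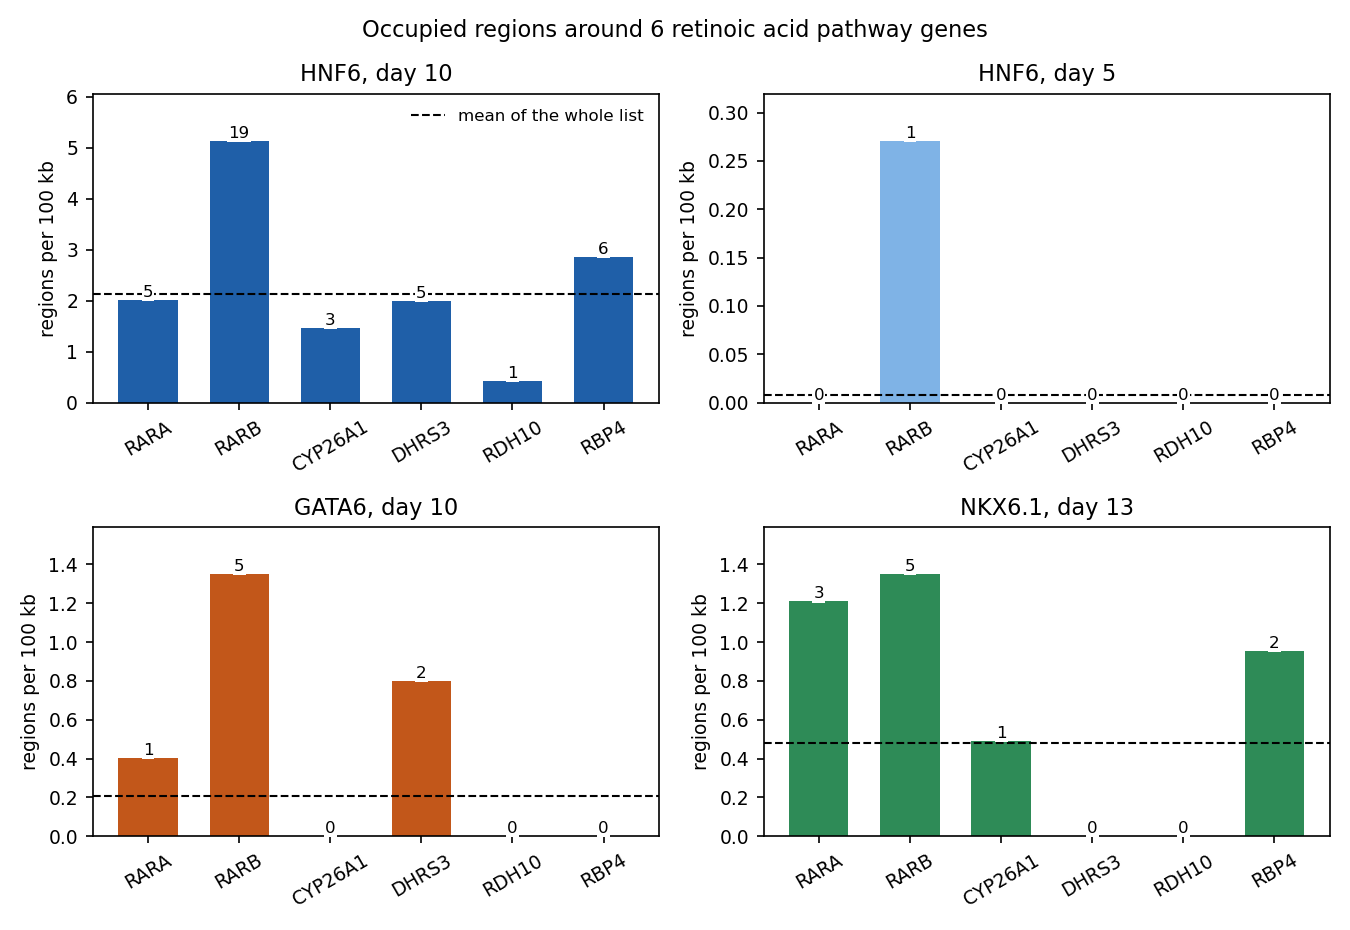
Regions per 100 kb of window at each locus, with 1 panel per list and the number of regions above each bar. The dashed line is the mean of the whole list over the chromosomes. RARB, with 19 HNF6 regions of day 10, 5 GATA6 and 5 NKX6.1 regions, has the tallest bar in each panel, and the vertical scales differ between panels.

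RARA, a nuclear receptor for retinoic acid expressed in most tissues, carried its strongest regions upstream and inside the gene. The strongest HNF6 region of day 10 (chr17:38440134-38440604, score 1181) lay 25.1 kb before the gene start and stood at the score percentile 98.2 of its list, meaning that 98.2% of the regions had that score or a lower one. It shared 178 bp with the only GATA6 region of the locus (chr17:38440427-38440808, score 305, percentile 81.8), and the midpoints of the pair lay 248.5 bp apart. Inside the gene, 3 HNF6 regions had their midpoints at 4.68, 42.0 and 46.7 kb, with scores of 416, 374 and 302 (percentiles 90.7, 89.5 and 86.5). The gene makes up 19.5% of its window and held 3 of the 5 regions. The remaining region, 28.4 kb before the start, had a score of 71 (percentile 45.7).

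The 3 NKX6.1 regions at RARA had midpoints 84.0 and 40.9 kb before the start and 123 kb past it, with scores of 48, 114 and 88 (percentiles 43.8, 82.8 and 74.4). None of the 3 overlapped a region of another list (Wilson 95% interval 0 to 56.1% for overlap with HNF6 of day 10), and over the whole NKX6.1 list 14.3% overlapped HNF6 of day 10, so most NKX6.1 regions lay apart from HNF6 there too. In the RefSeq annotation of GRCh38, CDC6 is the next coding gene upstream of RARA and GJD3 the next downstream. Regions were assigned by distance alone, so those outside the gene may belong to a neighbour.

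RARB, the receptor whose own gene responds to retinoic acid, was occupied just past its start. The HNF6 region nearest to the start (chr3:25469814-25470121) ran from 60 to 367 bp past it, with a score of 55 (percentile 32.5). No region of any list covered the hg19 start of any of the 6 genes. Starts of neighbouring genes and other RefSeq starts were not checked in this way. The next HNF6 region, centred 0.773 kb past the start, had a score of 81 (percentile 51.4). Behind it lay a region (chr3:25470864-25472313, score 897, percentile 96.9) of 1450 bp, rank 5 by width among the 64919 HNF6 regions of day 10, which the authors listed in 3 rows. All 3 regions lay past the start, whereas the response element printed above lies before the RefSeq start, which is as far from the gene end as the hg19 start to within 1 bp.

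That wide HNF6 region held both other factors. It overlapped a GATA6 region (chr3:25471696-25472405) with a score of 1568, rank 67 of 6285 and percentile 98.9. A second GATA6 region in it (chr3:25470981-25471638) had a score of 246 (percentile 76.9). The NKX6.1 region there (chr3:25471309-25471410) lay within that second GATA6 region and had a score of 63 (percentile 59.8). GATA6 thus was high in its list at this place and NKX6.1 was near the middle of its list.

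All 3 factors were also found 8.15 kb past the start, inside the gene. The HNF6 region of day 10 (chr3:25477628-25478189) had a score of 1808, rank 409 of 64919 and percentile 99.4, the highest HNF6 score of the 6 loci. The NKX6.1 region (chr3:25477852-25478062) had a score of 693, rank 37 of 14627 and percentile 99.8, and the GATA6 region (chr3:25477829-25478209) had a score of 544 (percentile 90.9). The midpoint of HNF6 lay 48.5 bp from that of NKX6.1 and 110.5 bp from that of GATA6. Over the whole lists, the median distance between overlapping midpoints was 55 bp for HNF6 and NKX6.1 and 63 bp for HNF6 and GATA6. Merged regions that held all 3 factors numbered 781 genome-wide and were ranked by their mean distance from the top of the 3 lists. This one ranked 16 (3.31 percent), and the one near the start ranked 130 (14.8 percent). The latter rank uses the stronger GATA6 region there (percentile 98.9), which shares no base with the NKX6.1 region.

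Farther into RARB, 6 HNF6 regions of day 10 overlapped no other list, as did most regions of that list, of which 11.9% overlapped another. Between 27.2 and 30.7 kb past the start, 4 regions lay within 3.86 kb. The strongest of them (chr3:25500238-25500709) had a score of 927 (percentile 97.1) and the next a score of 476 (percentile 92.2), whereas the remaining regions, with scores of 63 and 62, lay at the percentiles 39.8 and 38.7. Beyond them the gene held 2 weak HNF6 regions, at 75.6 and 125 kb with scores of 38 and 57, and 1 weak NKX6.1 region at 55.7 kb with a score of 18 (percentile 5.39). In all, the gene makes up 45.9% of its window and held 10 of the 19 HNF6 regions, 3 of the 5 GATA6 regions and 3 of the 5 NKX6.1 regions. RefSeq lists 4 transcription starts for RARB. The start nearest the gene end lies 139622 bp from it in GRCh38, against 169668 bp for the hg19 start, a difference of -30046 bp. If the gene end is the same in both builds, this start falls among the 4 regions at 27.2 to 30.7 kb. Those regions may therefore lie near a promoter. Apart from this start and the printed one, the starts were not placed on hg19.

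Past the RARB end another group of HNF6 regions lay 235 to 237 kb from the start. It held the only region of HNF6 on both days at the 6 loci: the region of day 10 (chr3:25704561-25705168) had a score of 1262, rank 1015 and percentile 98.4, and that of day 5 (chr3:25704772-25704971) had a score of 72 and a percentile of 24.8 in its own list. The midpoints lay 7 bp apart. Next to it were HNF6 regions of day 10 with scores of 89 and 589 (percentiles 55.8 and 94.1), each with a weak GATA6 region of score 27 or 68 (percentiles 5.55 and 34.7). A GATA6 region was thus listed at both ends of the locus, with scores of 246 to 1568 in the first 9 kb of the gene and of 27 and 68 past its end. In the RefSeq annotation of GRCh38, TOP2B, which encodes a DNA topoisomerase, overlaps RARB, so the regions past the RARB end may belong to that gene.

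The rest of the RARB window held HNF6 regions below the highest score decile and no overlap between lists. Those before the start, 49.3 and 40.3 kb from it, had scores of 22 and 178 (percentiles 3.35 and 76.6). Past the gene end, 4 more had scores of 162, 71, 32 and 51. NKX6.1 regions 84.5 kb before and 230 kb past the start had scores of 15 and 41.

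**Figure D2:**
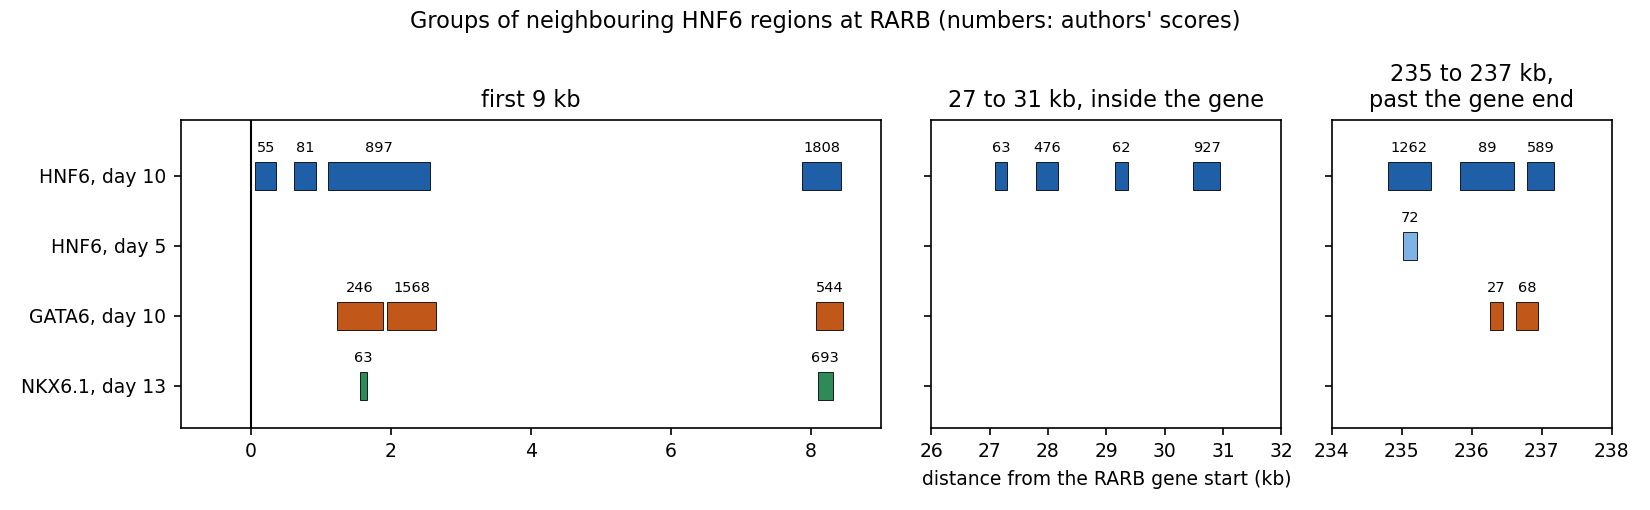
Regions of the 4 lists at 3 stretches of the RARB locus, drawn to scale by their distance from the gene start in kb, with the authors' score above each region; scores are comparable within a list. HNF6, GATA6 and NKX6.1 coincide near 1.6 and 8.2 kb, HNF6 of day 10 stands alone at 27 to 31 kb, and HNF6 of day 5 appears at 235 kb under the day 10 region of score 1262.

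CYP26A1, the cytochrome P450 enzyme that degrades retinoic acid, held few regions, of low to middle score. The 3 HNF6 regions of day 10 lay 92.1, 41.4 and 5.10 kb before the start, with scores of 41, 98 and 45 (percentiles 20.5, 59.1 and 23.4). The only NKX6.1 region lay 77.9 kb before the start with a score of 63 (percentile 59.8). All 4 lay upstream, and none was listed inside the gene or in the 100 kb past it. In GRCh38 the next coding gene upstream is CYP26C1, a relative that also degrades retinoic acid. EXOC6 also lies within 100 kb of CYP26A1. The lists do not tell to which of these genes the upstream regions belong.

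DHRS3, an enzyme that reduces retinaldehyde to retinol, carried a strong GATA6 region on weak HNF6 occupancy. The GATA6 region 37.0 kb before the start (chr1:12714607-12715052) had a score of 996, rank 197 of 6285 and percentile 96.9. The HNF6 region inside it (chr1:12714707-12714978) had a score of 30 and a percentile of 8.62 in its list. Of the 630 GATA6 regions above the percentile 90, 26, or 4.13%, had their strongest HNF6 partner at or below the percentile 10, so such a pairing was uncommon but not confined to this locus.

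The remaining HNF6 regions of DHRS3 lay outside the gene as well. Past the gene end, 80.9 kb from the start, HNF6 with a score of 37 (percentile 15.1) overlapped GATA6 with a score of 140 (percentile 60.7). The strongest HNF6 region (chr1:12597938-12598268, score 373, percentile 89.4) lay 79.7 kb from the start and overlapped no other list. The HNF6 regions 26.5 and 36.5 kb before the start had scores of 75 and 21. None of the 5 HNF6 regions, the 2 GATA6 regions or any NKX6.1 region lay inside the gene, which makes up 20.0% of its window. The next coding gene is AADACL4 upstream and VPS13D downstream in GRCh38.

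RDH10, the dehydrogenase that oxidises retinol to retinaldehyde at the first step of the pathway, was almost empty. Its only region was an HNF6 region of day 10 (chr8:74332276-74332547) 94.9 kb from the nearest end of the gene, with a score of 79 at the percentile 50.2. A region missing from a list shows only that none passed the authors' threshold.

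RBP4, which carries retinol in blood and is made mainly by the liver, held HNF6 regions of middle to low score. Past the gene end, the midpoints lay 20.2, 25.9, 89.8 and 106 kb from the start, with scores of 70, 108, 190 and 157 (percentiles 44.1, 61.6, 78.0 and 73.4). Before the start, the regions at 61.4 and 79.9 kb had scores of 35 and 41 (percentiles 13.5 and 20.5). The regions past the gene end thus all had higher scores than those before the start. The 2 NKX6.1 regions lay 71.2 and 77.7 kb before the start, with scores of 59 and 18, and overlapped no other list. The neighbours in GRCh38 are PDE6C upstream and FFAR4 downstream.

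**Figure D3:**
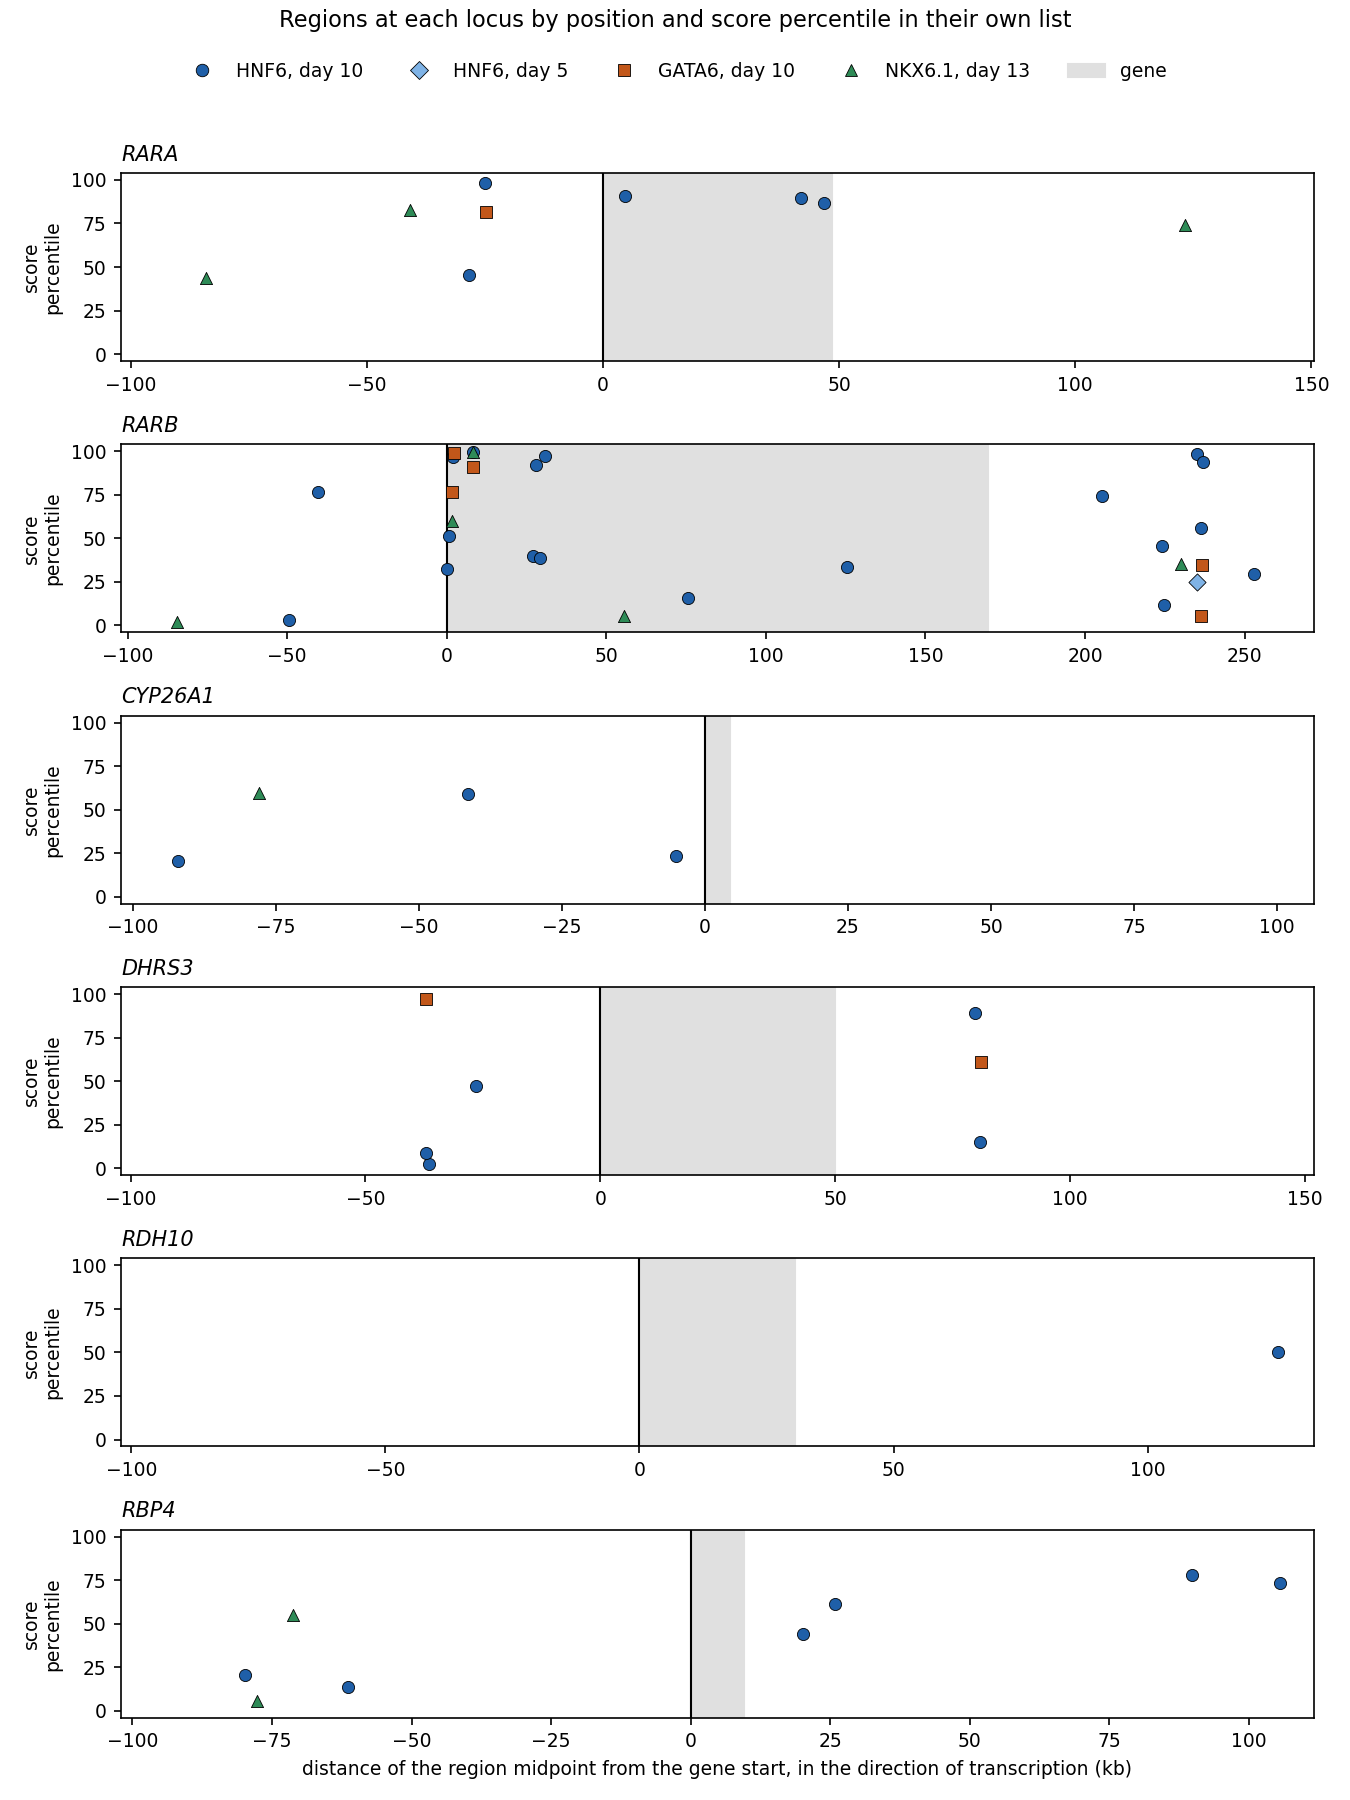
Position and score percentile of the 59 regions, with 1 panel per gene. The horizontal axis is the distance of the midpoint from the gene start in the direction of transcription (kb), the vertical axis the percentile of the score in the region's own list, and the grey band the gene. High percentiles gather at RARB near its start, at 27 to 31 kb and at 235 to 237 kb, and inside and upstream of RARA, DHRS3 holds a GATA6 point at 96.9 and an HNF6 point at 89.4, and CYP26A1, RDH10 and RBP4 hold no point above 80.

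Scores within the HNF6 list of day 10 set the receptors beside the remaining genes. The 39 regions had a median percentile of 50.2 and ran from 2.50 to 99.4. The median was 89.5 at RARA (n = 5), 51.4 at RARB (n = 19), 23.4 at CYP26A1 (n = 3), 15.1 at DHRS3 (n = 5) and 52.9 at RBP4 (n = 6). Regions of the highest score decile numbered 8 of 39, or 20.5% (Wilson 95% interval 10.8 to 35.5), against 10.0% of the list. RARB held 6 of them and RARA 2, and the other 4 loci held 0 of 15. Without RARB the share was 2 of 20, or 10.0% (2.79 to 30.1). For GATA6, 3 of 8 regions were in the highest decile (37.5%, 13.7 to 69.4, against 10.0% of the list), 2 at RARB and 1 at DHRS3. For NKX6.1 it was 1 of 11 (9.09%, 1.62 to 37.7, against 10.1%), at RARB. The intervals cover counting error only, and regions of 1 locus are not independent.

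Regions shared between lists were found at 3 of the 6 loci, of which RARB kept some under each alternative tried, whereas RARA had 0 when 50% of the shorter region had to be covered or midpoints to lie within 200 bp, and DHRS3 had 0 at scores of at least 50 or above the median of each list. After all 4 lists had been merged, the loci held 48 regions, of which 8 were held by 2 or more lists (16.7%, against 9.95% of 77373 merged regions). RARB had 5 of them, DHRS3 had 2, RARA had 1, and CYP26A1, RDH10 and RBP4 had 0. Of those at RARB, 3 lay past the gene end, where regions may belong to TOP2B. GATA6 was in most of the 8. Each listed GATA6 region of the series overlapped HNF6 of day 10, so a merged region with GATA6 always counts as shared. Both regions with all 3 factors were at RARB, which makes 4.17% of the 48 (against 1.01% of all merged regions).

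Counted from HNF6 on day 10, 7 of 39 regions overlapped a listed GATA6 region, or 17.9% (8.98 to 32.7), against 9.66% of the list, and the interval includes the share of the list. Any other list was overlapped by 8 of 39 (20.5%, 10.8 to 35.5), against 11.9%. The regions with GATA6 were 4 of 19 at RARB, 2 of 5 at DHRS3 and 1 of 5 at RARA. NKX6.1 was found at 2 of 39 (5.13%, 1.42 to 16.9), against 3.20% of the list. Both factors were found at the same 2 regions (5.13%, 1.42 to 16.9, against 1.15% of the list), and HNF6 of day 5 at 1 (2.56%, 0.454 to 13.2, against 0.347%). Such intervals cover counting error only, regions of 1 locus are not independent, and these shares rest on 2 regions and on 1. Without RARB, GATA6 was found at 3 of 20 regions (15.0%, 5.24 to 36.0) and NKX6.1, both together and HNF6 of day 5 at 0 of 20 each (0 to 16.1). All 8 GATA6 regions overlapped HNF6, as did 100% of the listed GATA6 regions. The GATA6 list gives 6285 of peak numbers that run to 19404, and the sources used here do not say how these were selected. Had it been limited to peaks that overlap HNF6, the 100% would follow from that choice. NKX6.1 was found at 2 of the 8 GATA6 regions (Wilson 95% interval 7.15 to 59.1%), against 11.8% of the GATA6 list.

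From the side of NKX6.1, 2 of 11 regions (18.2%, 5.14 to 47.7) overlapped HNF6 of day 10, against 14.3% of the NKX6.1 list, and the same 2 overlapped listed GATA6, against 5.18%. The 9 others lay apart from all other lists. Between the NKX6.1 list and the others the day differed as well as the factor, the antibody and the library, and their parts cannot be told apart.

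HNF6 regions of day 10 at RARB also lay close to each other. Runs of at least 3 regions with neighbouring midpoints within 5 kb held 10 of the 39 regions (25.6%, 14.6 to 41.1), against 10.7% of the list. All 10 belonged to RARB, in the runs at its start, at 27.2 to 30.7 kb and at 235 to 237 kb, and without RARB it was 0 of 20. Regions of a run are neighbours by definition and not independent, whereas the interval covers counting error only. The rule for runs was chosen after seeing the data. In runs formed the same way lay 0 of 8 GATA6 regions (against 1.35% of the list) and 0 of 11 NKX6.1 regions (against 0.855%). Genome-wide, for HNF6 of day 10, 2042 of 52821 runs held at least 3 regions and 560 at least 4. The HNF6 regions of the 3 RARB runs covered 2076 bp at the start, 1270 bp at 27.2 to 30.7 kb and 1782 bp past the gene end.

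**Figure D4:**
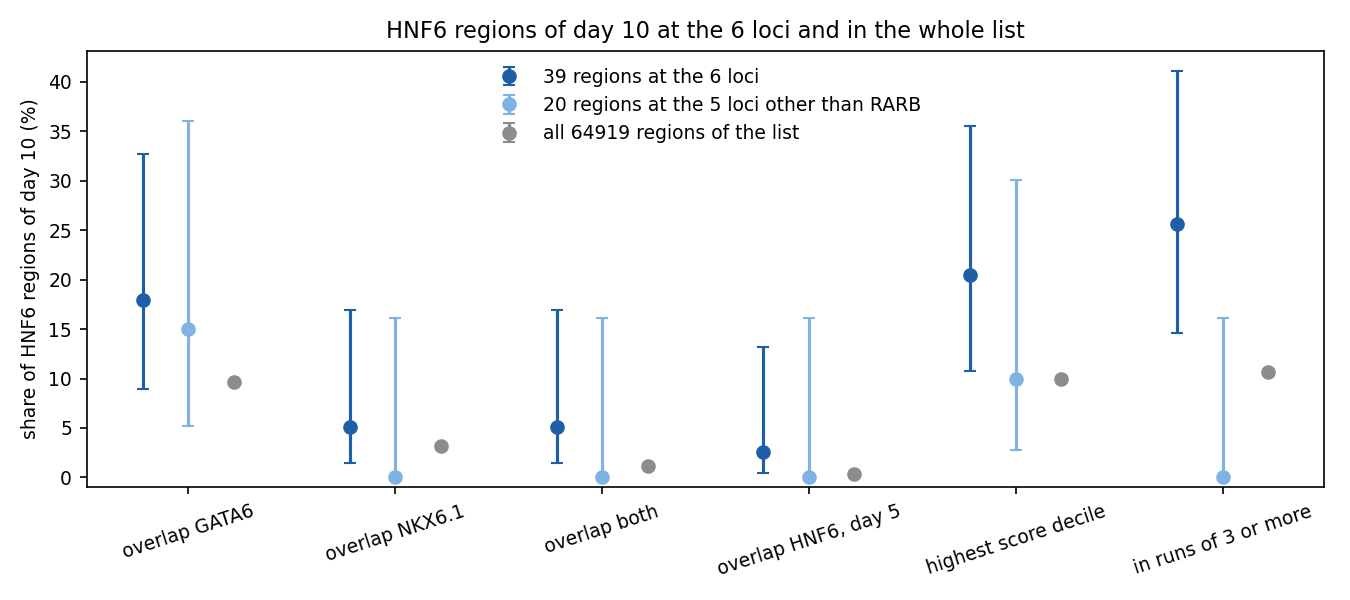
Share of HNF6 regions of day 10 (%) that overlap another list, lie in the highest score decile of their list or lie in runs of 3 or more, for the 39 regions at the 6 loci, the 20 at the loci other than RARB and all 64919 of the list. Bars are Wilson 95% intervals. Without RARB the shares with NKX6.1, with HNF6 of day 5 and in runs are 0, and that of the highest decile equals the 10.0% of the list.

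Setting day 10 beside day 5 shows where HNF6 was found at both stages. At the 6 loci, 39 regions were listed on day 10 and 1 on day 5. The region of day 5 overlapped one of day 10, as did 90.4% of the day 5 list. Its score was in the lowest quartile of day 5 while its partner stood at the percentile 98.4 on day 10. Among the 51 day 5 regions at or below the percentile 25 that overlapped a day 10 region, 29 (56.9%) had a partner above the percentile 90, so this combination was common. With 250 regions on day 5 against 64919 on day 10 and no depth given for either, a difference in stage and a difference in library yield cannot be told apart.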

How the data were processed

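Peak lists of 4 libraries were read, and the 3 input libraries were not analysed here. Bowtie2 2.3.4.1, MACS2 2.1.1.20160309 and hg19 are named, without roles or settings, per the submitters' processing notes. The deposited score of each peak, a whole number of at least 13, is the authors' and has no stated unit. It was used only to rank regions within a list. Where rows shared coordinates, the top score was kept for 1 region. Gene positions on hg19 came with the choice of loci. Midpoints decided membership, and overlap was counted from 1 bp and equalled bedtools 2.31.1 in all pairs. Positions are 1-based. Shares carry Wilson 95% intervals (Python 3.11.15, pandas 2.3.3, statsmodels 0.14.6). Chromosome length was the farthest listed position. Counts of overlaps and of regions per locus were tested on simulated data and returned what was planted. Regions were named by rule: each region of the HNF6 day 5, GATA6 and NKX6.1 lists, each shared region, and at each locus the 3 strongest HNF6 regions of day 10 and the nearest to the gene start. The other regions were added after their values were seen. Members, lists and alternatives were chosen with earlier results of these data known. Runs, score deciles, shifted windows, the list of surroundings to 250 kb and values without RARB were chosen after seeing the data. Other pathway genes were not located, because no hg19 annotation was used here, and sequences of the regions were not read. Strands came from RefSeq's promoter table, and that of RDH10 from general knowledge.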

Additional observations from a re-analysis of the deposited data

How the results depend on the processing

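No paired analysis was possible because each group has 1 library and no test was run. Windows of 50 kb in place of 100 kb left 0 HNF6 regions of day 5 (main value 1), 4 NKX6.1 regions (11), 0 overlaps of HNF6 between day 10 and day 5 (1) and 5 merged regions held by 2 or more lists (8). Windows of 250 kb gave 73 HNF6 regions of day 10 (39), 19 NKX6.1 regions and 4 overlaps of HNF6 with NKX6.1 (2). Scores of at least 50 left 6 NKX6.1 regions, 4 overlaps with GATA6 (7) and 5 merged shared regions. Regions above the median score of their list numbered 0 for HNF6 on day 5, 19 for HNF6 on day 10 and 6 for NKX6.1. That limit left 3 overlaps with GATA6, 0 with HNF6 of day 5 and 3 merged shared regions. With each deposited row counted, HNF6 overlapped NKX6.1 in 4 rows, and GATA6 and NKX6.1 together in 4, since the wide RARB region counts once per row. With midpoints within 200 bp both were 1, because the midpoint of the wide region lies farther from its partners. Counting regions with any base inside the window moved no count by over 1.5 times, and with 50% of the shorter region covered, or midpoints within 200 bp, the shared region of RARA was lost. Both shared regions of DHRS3 were lost at scores of at least 50 and above the median, and RARB had 2 of its 5 left above the median and with 50 kb. Of 111 values per locus and setting with a main value above 0, 78 stayed within 1.5 times it or, for shares of windows, within its interval. The other 84 had a main value of 0, which narrower windows or score limits cannot move. Of these, 3 moved, all with windows of 250 kb: GATA6 and shared regions at RDH10, and NKX6.1 at DHRS3. Shifted windows, chosen after seeing the data, left the shares for RARB within their intervals. Neither the read depth nor the threshold of the peak calls is given in the sources used here, which limits what a missing region shows.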

Other observations

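Beyond the 100 kb windows, the surroundings of DHRS3 held the most further regions when the limit was set at 250 kb. HNF6 of day 10 had 10 more regions on the side past the gene end. Of these, 2 were in the highest score decile, which holds 10.0% of the list. They had scores of 718 and 423 at 207 and 222 kb from the gene. NKX6.1, listed at 0 regions in the 100 kb window, had 4 there. One of these, 166 kb from the gene with a score of 25, overlapped both GATA6 (score 64) and HNF6 (score 45). Over the whole lists the densities were 2.13 regions per 100 kb for HNF6 of day 10 and 0.479 for NKX6.1. How common such counts are in stretches of this length was not computed, and locus and side were picked after seeing the counts. VPS13D is the next coding gene on that side in GRCh38.

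At RDH10 the 250 kb window added 4 HNF6 regions, all past the gene end. How common this is was not computed either. The strongest, 220 kb from the gene, had a score of 554 (percentile 93.6) and overlapped a GATA6 region of score 132. STAU2 is the next coding gene on that side in GRCh38.

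Near the limit of the rule, the HNF6 region of day 10 just outside the DHRS3 window lay 106 kb from the gene (score 142), and just outside the RBP4 window 109 kb (score 287). Just inside, the farthest HNF6 regions lay 96.0 kb from RBP4 (score 157), 94.9 kb from RDH10 (score 79) and 92.1 kb from CYP26A1 (score 41). At RARB the nearest HNF6 regions outside the window were a pair 122 kb before the gene, with scores of 57 and 502.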
